A study of Mus musculus with 36 samples.

Results

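The set described here holds 10 mouse genes for the recognition and uptake of apoptotic cells and modified lipoproteins: Gas6, Pros1, Mertk, Axl, Mfge8, Timd4, Stab1, Msr1, Marco and Olr1. Members were chosen by name, as every non-control probe annotated to a listed gene, which gave 14 probes among 41174 on the array. All 10 were among the 18141 genes tested. Transcript levels came from 36 single-colour Agilent arrays, 3 for each of 12 groups of myeloid cells. Unless stated otherwise, the cells were bone marrow monocytes sorted by flow cytometry as CD11b+ Ly6C+ Ly6G-.

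The Mreg group (regulatory macrophages) was kept for 7 days in 10% human AB serum, 10% fetal calf serum (FCS) and 5 ng/ml M-CSF, a macrophage growth factor, and received 25 ng/ml IFN-γ from day 6 for 24 h. Mreg_+LPS also received LPS, a bacterial cell wall component, labelled as 100 µg/ml, and Mreg_no IFN-γ received neither. Mreg_unpurified was made like Mreg, but from adherent mononuclear cells of bone marrow, spleen and blood that had not been sorted. The MΦ groups were kept for 7 days in 10% FCS and 20 ng/ml M-CSF, with any added stimulus given from day 6 for 24 h. Of these, MΦ_IFN-γ received 25 ng/ml IFN-γ, MΦ_M1 received IFN-γ with LPS labelled as 100 µg/ml, MΦ_M2a received 20 ng/ml IL-4, and MΦ_M2c received 1e-07 M dexamethasone, a glucocorticoid. MΦ_M2b received 25 ng/ml IFN-γ on dishes coated with human immunoglobulin at 1 mg/ml, and MΦ_M0 received no stimulus. Mo-DC (monocyte-derived dendritic cells) were grown for 7 days in 10% FCS with 20 ng/ml GM-CSF and 20 ng/ml IL-4. They received 25 ng/ml IFN-γ from day 6 for 24 h. The Monocytes group was sorted and not cultured.

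Dying cells expose phosphatidylserine, and phagocytes bind it directly or through soluble bridging proteins. Gas6 bridges it to the receptor tyrosine kinases Mertk and Axl, and protein S (Pros1) bridges it to Mertk. Mfge8 bridges phosphatidylserine to integrins, and Timd4 and stabilin-1 (Stab1) bind it themselves. Msr1, Marco and Olr1 are scavenger receptors that bind modified lipoproteins or microbial surfaces.

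Probe positions (mm8, as deposited) were chr8:13465421-13465480 for Gas6, chr16:62871104-62871163 for Pros1, chr2:128493572-128493631 for Mertk and chr7:25466694-25466753 for Axl. For the others they were chr7:79007316-79007375 for Mfge8, chr11:46687094-46687153 for Timd4, chr14:29968111-29968170 for Stab1, chr1:122302084-122302103 for Marco and chr6:129450991-129451050 for Olr1. Pros1 and Stab1 had 2 probes each and Msr1 had 3, of which the brightest was used. No annotation of exons or UTRs in that build was used here.

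Between 50.4% and 57.7% of probes were well above background on an array, and arrays of a group correlated at 0.9825 to 0.993. There were 9 slides of 4 arrays, so that some groups compared shared slides and others did not. Whether a group's 3 arrays stem from different animals or cultures is not labelled, so the p-values reflect array-to-array spread alone, which may be technical. A level is the log2 processed signal minus the array's 75th percentile, and a change was called at a limma adjusted p below 0.05 over all genes tested. The stimuli left their marks. Gbp2, an IFN-γ target, rose by 10.27 (log2) in Mreg over Mreg_no IFN-γ and by 8.24 in MΦ_IFN-γ over MΦ_M0 (adjusted p = 8.5e-23 and 2.5e-20). Il1b, an LPS target, rose by 5.05 in Mreg_+LPS and by 6.93 in MΦ_M1 over their partners without LPS. Arg1, an IL-4 target, rose by 10.43 in MΦ_M2a, and Fkbp5, a glucocorticoid target, by 5.74 in MΦ_M2c, both over MΦ_M0. All 6 macrophage markers were above background in every group.

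Gas6, Pros1, Stab1, Mertk and Marco, on which the stimulus comparisons turn, are shown with the bases before their annotated start (RefSeq, GRCm38.p6, 5′ to 3′ on the gene's strand), so that their promoters can be compared. Gas6 lies at chr8:13494536-13494785 (minus strand), Pros1 at chr16:62854057-62854306 (plus), Stab1 at chr14:31168652-31168891 (minus), Mertk at chr2:128698665-128698914 (plus) and Marco at chr1:120505025-120505274 (minus). For Stab1, 240 bases are shown and 10 that lie inside its gene span are left out. Capitals mark motif matches, which are a description and not binding sites.
Gas6: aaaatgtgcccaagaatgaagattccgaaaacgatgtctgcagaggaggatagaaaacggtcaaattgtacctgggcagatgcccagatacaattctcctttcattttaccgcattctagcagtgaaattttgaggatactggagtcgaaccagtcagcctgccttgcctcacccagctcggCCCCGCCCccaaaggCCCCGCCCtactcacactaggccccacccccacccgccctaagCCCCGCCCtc
Pros1: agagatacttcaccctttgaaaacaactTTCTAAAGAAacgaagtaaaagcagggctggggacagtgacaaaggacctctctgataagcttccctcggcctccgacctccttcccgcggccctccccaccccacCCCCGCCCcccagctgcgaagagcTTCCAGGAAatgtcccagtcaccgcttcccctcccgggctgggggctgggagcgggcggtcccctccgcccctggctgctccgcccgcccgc
Stab1: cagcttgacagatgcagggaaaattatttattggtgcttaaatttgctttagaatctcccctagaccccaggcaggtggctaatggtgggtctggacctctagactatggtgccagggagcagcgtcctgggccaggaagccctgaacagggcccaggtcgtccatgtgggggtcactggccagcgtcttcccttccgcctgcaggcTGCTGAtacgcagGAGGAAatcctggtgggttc
Mertk: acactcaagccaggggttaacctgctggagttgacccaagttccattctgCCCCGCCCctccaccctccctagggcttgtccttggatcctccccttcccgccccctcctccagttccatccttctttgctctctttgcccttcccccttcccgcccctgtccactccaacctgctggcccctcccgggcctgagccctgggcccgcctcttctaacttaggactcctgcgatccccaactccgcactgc
Marco: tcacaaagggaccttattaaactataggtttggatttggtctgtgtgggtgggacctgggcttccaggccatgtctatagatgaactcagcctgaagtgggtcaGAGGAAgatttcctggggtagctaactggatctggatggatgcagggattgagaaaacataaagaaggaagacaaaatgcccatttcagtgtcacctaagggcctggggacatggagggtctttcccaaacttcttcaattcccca
Motifs were searched on both strands in the 250 bases before the start, for the 9 members with an entry and for 32851 promoters in all. Gas6 held 3 copies of the GC box CCCCGCCC, and Pros1 and Mertk held 1 each, against 16.1% of all promoters with at least 1. This motif was added after the letters had been seen. The Pros1 window held the STAT pattern TTCNNNGAA at -92 to -84 and the STAT6 pattern, with 1 more N, at -222 to -213, which 7.02% and 5.85% of promoters hold. Stab1 held the MAF half-site TGCTGA at -43 to -38 and the PU.1 core GAGGAA at -30 to -25, and Marco held GAGGAA at -146 to -141. The Stab1 positions are counted from the end of its 250-base window, whose last 10 bases are not in the stretch shown. GAGGAA was found in 23.3% of promoters and 5 of the 9 members, and TGCTGA in 16.1% and 2 of the 9. AP-1 (TGANTCA, in 6.75%) was matched only in Olr1. The glucocorticoid receptor half-site AGAACA (in 16.1%) and the NF-kB pattern (in 0.356%) were in none of the 9 windows.

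Of the 10 members, 9 differed among the 12 groups by limma's moderated F test, against a background of 92.5% of all genes. Timd4 was the exception (adjusted p = 0.26). It was above background on only 4 of 36 arrays, in 4 different groups. Group means spanned 10.1 log2 units for Marco, 9.52 for Gas6, 9.51 for Stab1 and 3.78 for Axl. For Olr1 and Mertk the lowest groups lay wholly or partly below background, so no span is given. Ordered by mean, Gas6, Mertk and Stab1 each had 5 of 11 neighbouring groups whose arrays did not overlap. Axl had 0 of 11.

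**Figure D1:**
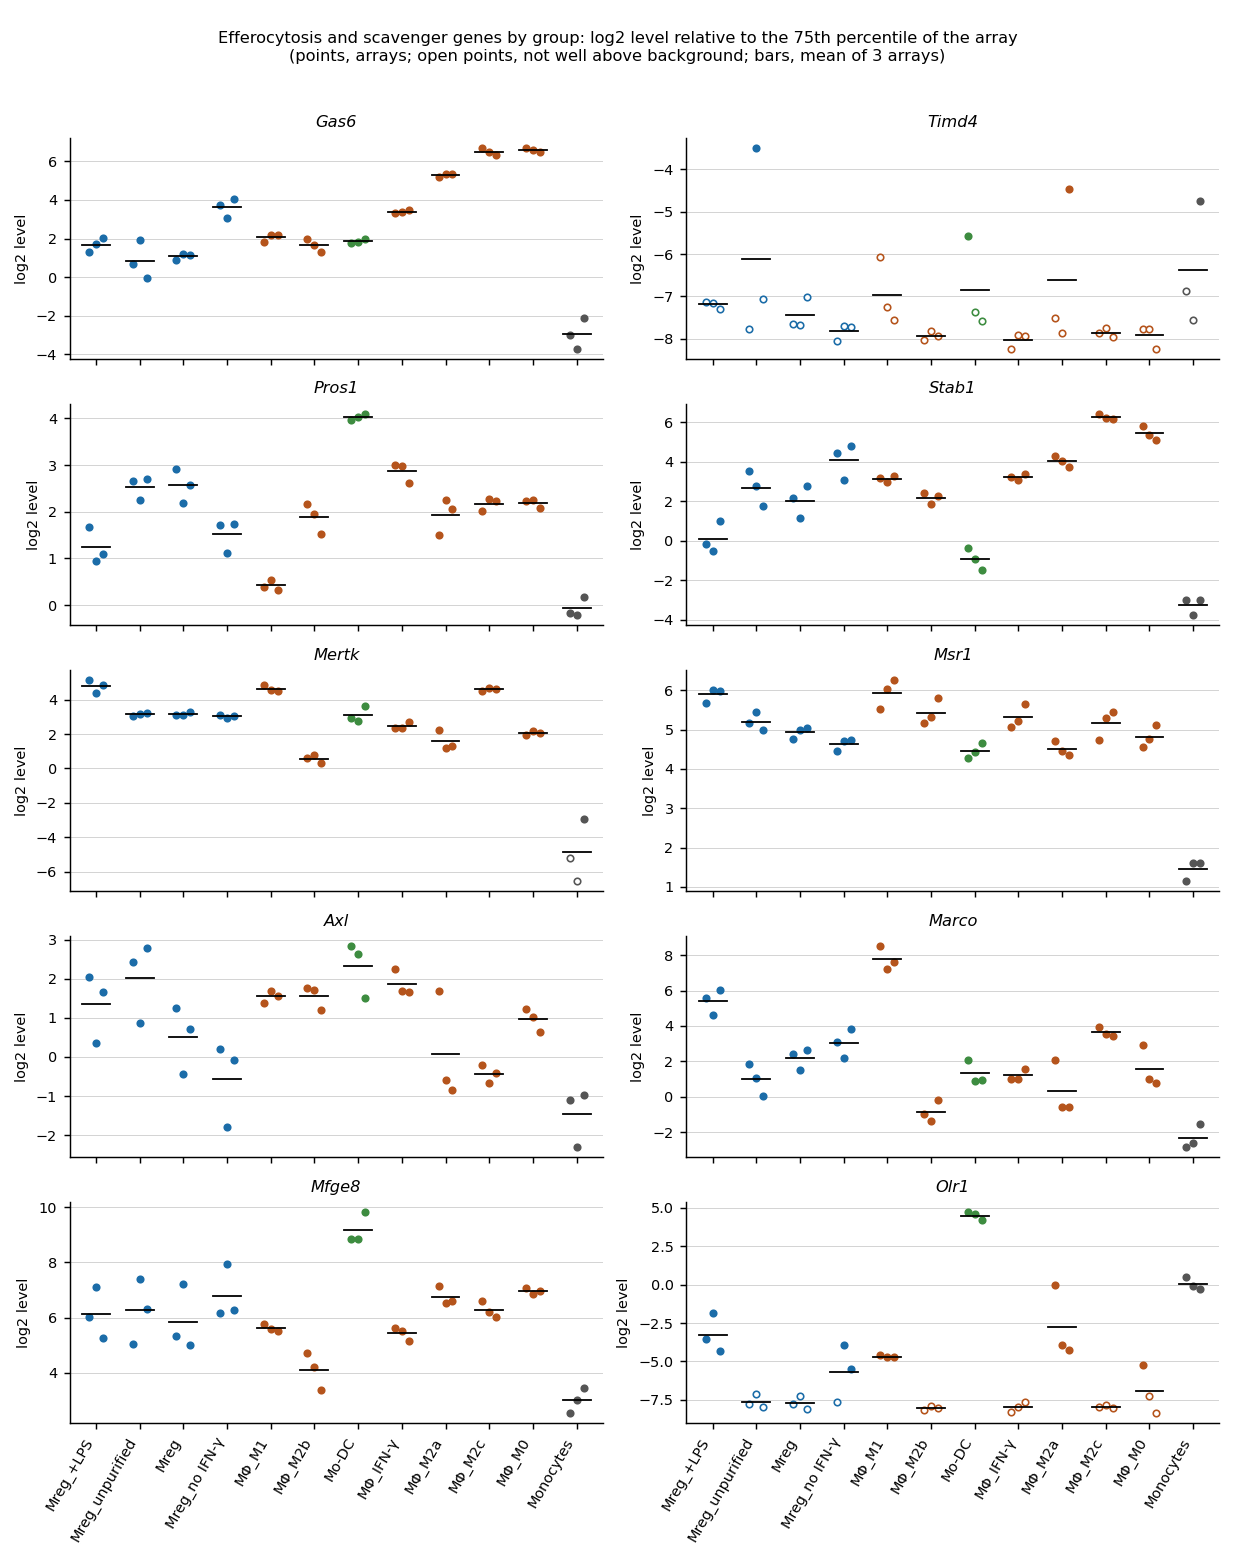
Log2 level of each member (relative to the array's 75th percentile) in the 12 groups, 1 point per array and a bar at the mean of 3 arrays. Gas6 was highest in MΦ_M0 and MΦ_M2c, Marco in MΦ_M1, and Olr1 and Mfge8 in Mo-DC.

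The groups at the top of each order differed between members. Gas6 averaged 6.58 ± 0.11 in MΦ_M0 and 6.51 ± 0.17 in MΦ_M2c (SD, n = 3 each), which overlapped, then 5.29 ± 0.08 in MΦ_M2a. Its lowest cultured groups were Mreg at 1.10 ± 0.17 and Mreg_unpurified at 0.85 ± 0.98, which also overlapped. Mertk was highest in Mreg_+LPS (4.79 ± 0.38), MΦ_M1 (4.63 ± 0.20) and MΦ_M2c (4.60 ± 0.11), 3 groups that overlapped and stood clear of the next. Stab1 was highest in MΦ_M2c at 6.26 ± 0.13, clear of MΦ_M0 at 5.43 ± 0.36. Pros1 (4.03 ± 0.06), Mfge8 (9.16 ± 0.55) and Olr1 (4.51 ± 0.26) were each highest in Mo-DC, clear of the next group. For Axl, no neighbours in the order could be told apart by their arrays.

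**Figure D2:**
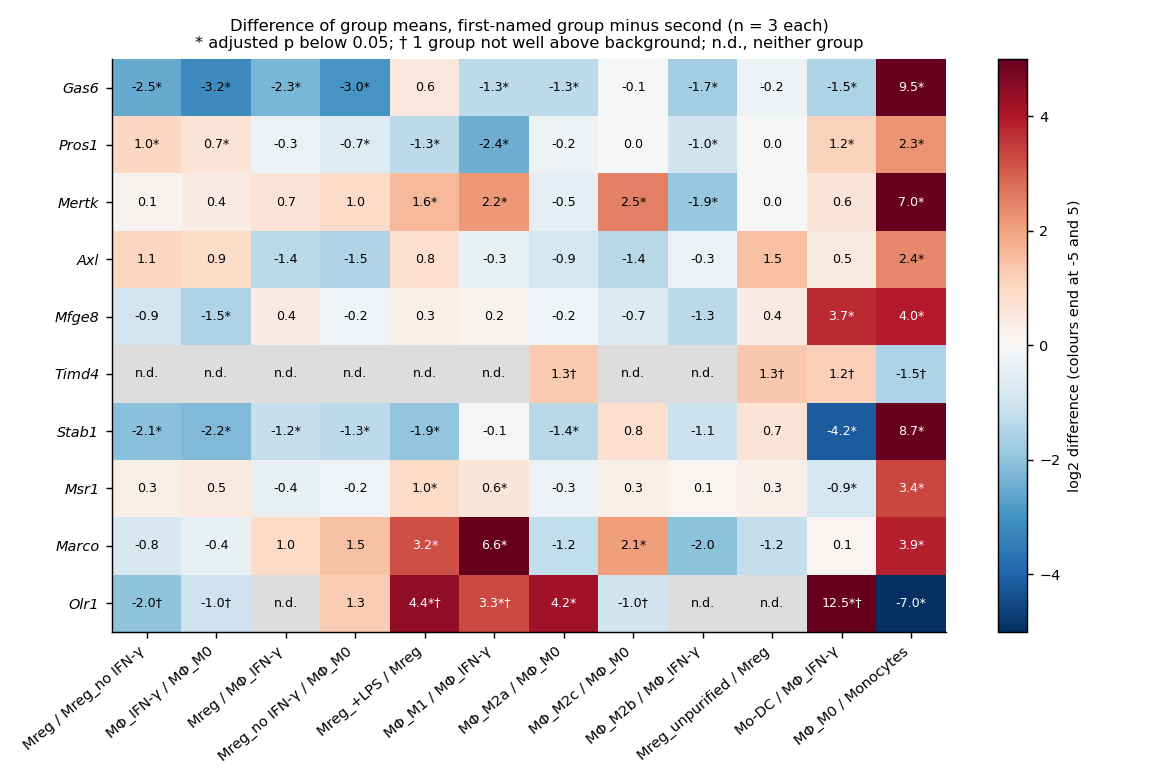
Log2 difference of group means for each member (rows) in 12 comparisons (columns, first-named group minus second, n = 3 each), with colours ending at -5 and 5. Asterisks mark adjusted p below 0.05. Gas6 and Stab1 were lower in both IFN-γ comparisons, and Marco and Mertk were higher in both LPS comparisons.

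IFN-γ lowered the ligand Gas6 and the receptor Stab1 and raised the ligand Pros1 in both cultures. In Mreg culture 3 members were called, 1 higher and 2 lower, against 20.2% of all genes. Gas6 levels were 0.91, 1.22 and 1.17 in Mreg, against 3.75, 3.08 and 4.04 in Mreg_no IFN-γ. The groups were far apart, and the fall was 5.77-fold (log2 -2.53 ± 0.34 SE, adjusted p = 3.7e-06). Stab1 was at 2.16, 1.15 and 2.80 in Mreg, against 4.43, 3.10 and 4.80 in Mreg_no IFN-γ, 4.21-fold lower (adjusted p = 0.0011). Pros1 was at 2.92, 2.20 and 2.58 in Mreg, against 1.71, 1.12 and 1.74 in Mreg_no IFN-γ, 2.06-fold higher (adjusted p = 0.00077). None of these groups overlapped. Fitted on the compared groups alone, Stab1 (adjusted p = 0.079) and Pros1 (0.052) were no longer called. Mfge8 was at 5.33, 7.22 and 5.00 in Mreg, against 6.16, 7.95 and 6.27 in Mreg_no IFN-γ (log2 -0.95, adjusted p = 0.26). Arrays numbered 2 were the highest in both groups. With 1 array left out in turn, the Mfge8 difference ran from -1.63 (without Mreg 2) to -0.37 (adjusted p 0.036 to 0.76). Axl was at 1.26, -0.44 and 0.71 in Mreg, against 0.21, -1.79 and -0.08 in Mreg_no IFN-γ, with overlapping groups (log2 1.06, adjusted p = 0.25). Within series numbers 1, 2 and 3 the Axl difference was 1.05, 1.36 and 0.79, and that of Mfge8 was -0.83, -0.73 and -1.28. Marco (-0.82, adjusted p = 0.44), Mertk (0.13) and Msr1 (0.30) were not called either. Olr1 was above background on 0 arrays of Mreg and 2 of Mreg_no IFN-γ (adjusted p = 0.10). The members' median difference was -0.35, against -0.06 over all genes.

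In MΦ_IFN-γ against MΦ_M0, 4 members were called, 1 higher and 3 lower, against 21.9% of all genes. Gas6 was at 3.34, 3.36 and 3.47 in MΦ_IFN-γ, against 6.68, 6.61 and 6.47 in MΦ_M0, a 9.1-fold fall (adjusted p = 5.9e-08). Stab1 was at 3.26, 3.08 and 3.39 in MΦ_IFN-γ, against 5.82, 5.38 and 5.10 in MΦ_M0, 4.57-fold lower (adjusted p = 0.00047). Mfge8, the integrin bridge, was at 5.62, 5.52 and 5.17 in MΦ_IFN-γ, against 7.07, 6.86 and 6.96 in MΦ_M0, 2.89-fold lower (adjusted p = 0.047). All of these groups were apart, yet the Mfge8 call was lost with any 1 array left out (adjusted p 0.081 to 0.13). Pros1 rose 1.61-fold (adjusted p = 0.021), which some left-out arrays ended (up to 0.086). Msr1 was 0.51 higher with adjusted p = 0.095, and 0.019 with the series number as a block.

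The IFN-γ response did not differ detectably between the cultures for any member, against 1.55% of all genes called in that interaction. The Gas6 response differed by 0.67 ± 0.48 (adjusted p = 0.73), that of Pros1 by 0.36 ± 0.30 (0.81), that of Mfge8 by 0.58 ± 0.78 (0.91) and that of Stab1 by 0.12 ± 0.63 (0.99). By limma, 0 members were called and 0 had an unadjusted p under 0.05, which does not show that the responses were equal.

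Among 11 other scavenger receptors, 1 rose and 5 fell in Mreg against Mreg_no IFN-γ, beside 9.38% higher and 10.8% lower of all genes. Those that fell included Colec12 (-1.96) and the mannose receptor Mrc1 (-1.90). In MΦ_IFN-γ, 1 of 11 rose and 6 fell against MΦ_M0, with Colec12 at -3.39, beside 10.5% higher and 11.3% lower of all genes. Of 19 other efferocytosis receptors and bridges, 5 rose and 6 fell in Mreg, and 3 rose and 5 fell in MΦ_IFN-γ. Cd14, which binds apoptotic cells as well as LPS, fell in both (-1.91 in Mreg and -2.44 in MΦ_IFN-γ). The cytokine signalling inhibitors Socs1 (5.24 in Mreg and 6.13 in MΦ_IFN-γ) and Socs3 (6.24 and 4.39) led the 3 rises among 9 TAM receptor partners in each.

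The regulatory culture itself was lower in Gas6 and Stab1. Against MΦ_IFN-γ, Mreg had 2 members called, both lower, against 27.4% of all genes. Gas6 averaged 1.10 ± 0.17 in Mreg and 3.39 ± 0.07 in MΦ_IFN-γ (SD, n = 3 each), 4.90-fold lower (adjusted p = 1e-05). Stab1 was 2.31-fold lower (adjusted p = 0.042), which several alternatives ended, such as leaving out Mreg 2 (log2 -0.77, adjusted p up to 0.28 over left-out arrays). Mertk was 0.70 and Marco 1.00 higher in Mreg, neither called (adjusted p = 0.30 and 0.27). Ly6C-high monocyte markers moved with this comparison: their summed level was 0.588 to 2.08 in Mreg and 50.2 to 60.9 in MΦ_IFN-γ, with 4 of 4 lower. Their part in the result was not tested.

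Without IFN-γ, Mreg_no IFN-γ against MΦ_M0 had 3 members called, all lower, against 30.9% of all genes. Gas6 averaged 3.63 ± 0.49 in Mreg_no IFN-γ and 6.58 ± 0.11 in MΦ_M0, 7.77-fold lower (adjusted p = 2.4e-07). Stab1 was 2.51-fold lower (adjusted p = 0.023) and Pros1 1.58-fold lower (0.020). Without array Mreg_no IFN-γ 2, neither was called (Stab1 0.20, Pros1 0.15). On all arrays, the second Stab1 probe was also called lower (log2 -1.12, adjusted p = 0.0059). The second Pros1 probe was not called (log2 -0.34, adjusted p = 0.16). The cultures differed in serum and in M-CSF dose, which cannot be told apart, and the arrays lay on different slides. Mertk was 0.97 and Marco 1.46 higher in Mreg_no IFN-γ, and Axl 1.51 lower (adjusted p = 0.12, 0.086 and 0.060). The 3 genes that check for glucocorticoid action moved with the Mreg cultures, which had human AB serum besides FCS and a lower M-CSF dose: all 3 were called higher in Mreg than in MΦ_IFN-γ (median 1.85), and all 3 in Mreg_no IFN-γ than in MΦ_M0 (median 1.35). Other check genes moved as well. All 3 IFN-γ check genes were lower in Mreg_no IFN-γ than in MΦ_M0 (median -2.24), while 0 were called in Mreg against MΦ_IFN-γ. Of 3 LPS check genes, 2 were lower in Mreg and 1 in Mreg_no IFN-γ. Of 3 IL-4 check genes, 1 was higher in each. The part of these check genes in the members' levels was not tested. C1qa, a complement component that bridges apoptotic cells, was lower in both comparisons, by 2.48 in Mreg and by 2.90 in Mreg_no IFN-γ. Of its list of 19 other efferocytosis receptors and bridges, 2 were higher and 3 lower in Mreg. In Mreg_no IFN-γ, 2 were higher and 6 lower. Of 11 other scavenger receptors, 5 were higher in Mreg and 3 in Mreg_no IFN-γ, and 0 were lower in either. Of all genes, 14.5% were higher and 12.9% lower in Mreg, and 17.6% and 13.3% in Mreg_no IFN-γ. The 4 Ly6C-high markers were again all lower, summing to 0.194 to 0.362 in Mreg_no IFN-γ and 4.16 to 8.63 in MΦ_M0, and their part was not tested.

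With LPS, Marco, Mertk and Olr1 rose and Pros1 fell in both cultures, while Stab1 fell only in Mreg culture and Gas6 only in M-CSF culture. Msr1 was called higher in both by its brightest probe, but not by every probe, and quantile normalization ended both calls. In Mreg_+LPS against Mreg, 6 members were called, 4 higher and 2 lower, against 57.1% of all genes. In MΦ_M1 against MΦ_IFN-γ, 6 were called, also 4 higher and 2 lower, against 50.6%. With 10 members, these counts are near the background. The members' median difference was 0.71 in Mreg_+LPS and 0.40 in MΦ_M1, against 0.16 and 0.11 over all genes.

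Marco, which binds bacteria and particles, was at 5.60, 4.63 and 6.02 in Mreg_+LPS, against 2.43, 1.52 and 2.67 in Mreg, and rose 9.23-fold (log2 3.21 ± 0.64, adjusted p = 0.00011). In MΦ_M1 it was at 8.49, 7.24 and 7.60, against 1.01, 1.03 and 1.58 in MΦ_IFN-γ, and rose 95.05-fold (6.57 ± 0.64, adjusted p = 2.5e-09). Neither pair overlapped. Mertk, the main efferocytic kinase receptor of macrophages, was at 5.12, 4.37 and 4.88 in Mreg_+LPS, against 3.10, 3.13 and 3.26 in Mreg, 3.08-fold higher (adjusted p = 0.0042). It was at 4.87, 4.54 and 4.50 in MΦ_M1, against 2.38, 2.34 and 2.70 in MΦ_IFN-γ, 4.48-fold higher (adjusted p = 0.00033). Mertk was thus higher on every LPS array than on any partner array.

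Olr1, the oxidised LDL receptor, was above background on 0 of 3 arrays in Mreg and in MΦ_IFN-γ, and on all 3 of each LPS group. The rise was at least 21.0-fold in Mreg_+LPS (adjusted p = 6.2e-05), or at least 12.9-fold without Mreg_+LPS 2, and at least 9.31-fold in MΦ_M1 (adjusted p = 0.0019), the second not called with normexp background correction (0.33). Pros1 was at 1.68, 0.94 and 1.10 in Mreg_+LPS, against 2.92, 2.20 and 2.58 in Mreg, 2.50-fold lower (adjusted p = 7.5e-06). Its second probe also fell, by 0.71. In MΦ_M1 it was at 0.39, 0.55 and 0.33, against 2.99, 2.99 and 2.62 in MΦ_IFN-γ, 5.44-fold lower (adjusted p = 3.8e-10). The ligand thus fell where its receptor Mertk rose.

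LPS moved 4 of the 10 members differently in the cultures, against 34.8% of all genes in that interaction, so this count is near the background. Stab1 fell 3.81-fold in Mreg_+LPS, at -0.14, -0.53 and 0.98, against 2.16, 1.15 and 2.80 in Mreg (adjusted p = 0.00054). In MΦ_M1 it was at 3.18, 2.96 and 3.31, against 3.26, 3.08 and 3.39 in MΦ_IFN-γ (log2 -0.09, adjusted p = 0.88). The difference of responses was -1.84 ± 0.63 (adjusted p = 0.023, 0.064 with normexp). The second Stab1 probe differed by -0.63 between Mreg_+LPS and Mreg (adjusted p = 0.081), with an interaction adjusted p of 0.058. Gas6 fell 2.50-fold in MΦ_M1, at 1.83, 2.18 and 2.20, against 3.34, 3.36 and 3.47 in MΦ_IFN-γ (adjusted p = 0.002). It was at 1.29, 1.75 and 2.01 in Mreg_+LPS, against 0.91, 1.22 and 1.17 in Mreg (log2 0.58, adjusted p = 0.15). The difference was 1.90 ± 0.48 (adjusted p = 0.0029). For Marco the difference was -3.36 ± 0.91 (0.0046) and for Pros1 1.12 ± 0.30 (0.0050), in each case a smaller change in Mreg culture. Mertk did not differ detectably (-0.54 ± 0.66, adjusted p = 0.58).

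**Figure D3:**
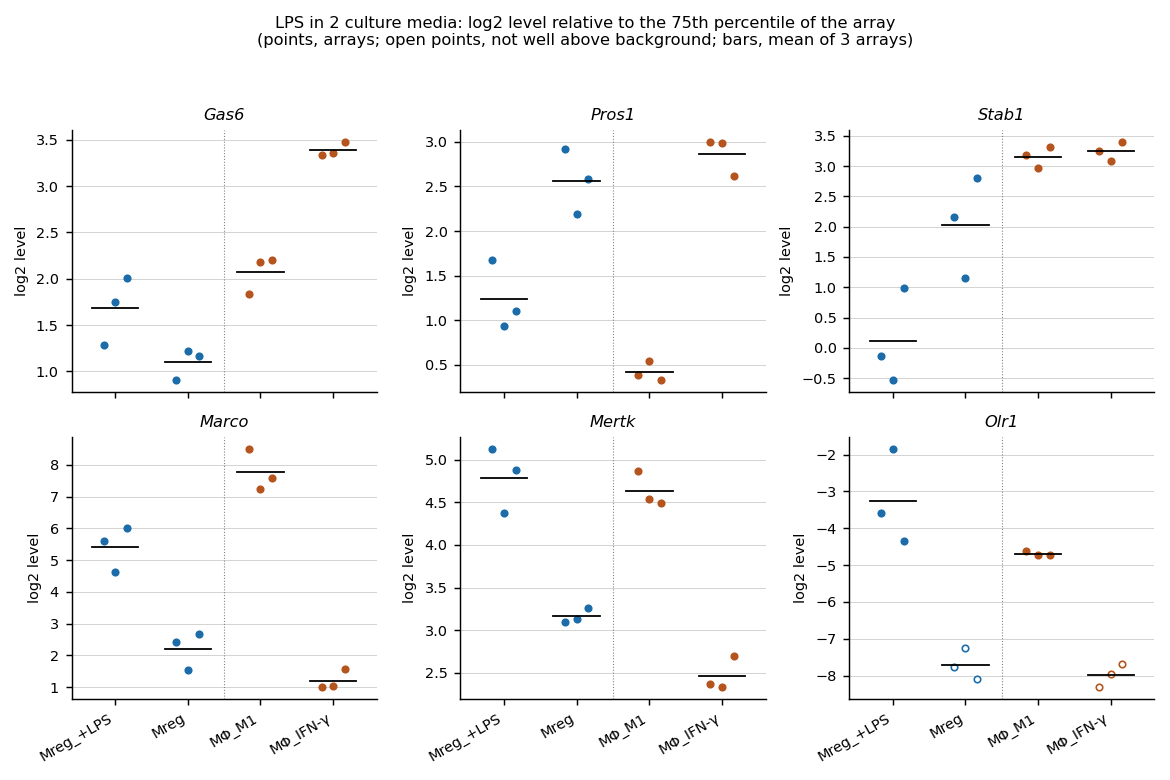
Log2 level on each array (points) with the mean of 3 (bars) in Mreg_+LPS, Mreg, MΦ_M1 and MΦ_IFN-γ. Marco and Mertk were higher with LPS in both cultures, and Stab1 was lower with LPS in Mreg culture.

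Msr1, scavenger receptor A, was at 5.69, 6.01 and 6.00 in Mreg_+LPS, against 4.76, 4.98 and 5.05 in Mreg. It was at 5.53, 6.04 and 6.26 in MΦ_M1, against 5.08, 5.23 and 5.66 in MΦ_IFN-γ. It rose 1.96-fold in Mreg_+LPS (adjusted p = 0.00032) and 1.54-fold in MΦ_M1 (adjusted p = 0.016), where the groups overlapped. Its 3 probes did not move alike. They are shown by their first 30 bases as deposited, in the order of their position in the transcript, since the call rests on which probe is read.
A_52_P127130: gacactgcttgatgttcaactccatacaga
A_51_P404846: gtgtaggcggatcaagatcagtataactcc
A_52_P607128: aagtcatcttacatccaaaactacacgtat
They start at transcript bases 624, 1097 and 3231 and lie on chromosome 8 (mm8) from 41122759 to 41122818, from 41104755 to 41106916 and from 41102621 to 41102680. With LPS in Mreg culture, A_52_P127130 rose by 1.23 and A_51_P404846, the brightest, by 0.97, while A_52_P607128 differed by 0.09 (adjusted p = 0.65). In MΦ_M1 against MΦ_IFN-γ the differences were 0.69, 0.62 and -0.35 (adjusted p = 0.023, 0.016 and 0.056). With quantile normalization the representative probe was not called (0.39 in Mreg_+LPS, adjusted p = 0.19, and 0.31 in MΦ_M1, 0.33). LPS moved the median of all genes by 0.1583 in Mreg_+LPS and by 0.1062 in MΦ_M1 in the fit reported here. With quantile normalization it was -0.0178 and -0.022. The 75th percentile of the signal, which sets the level, was lower on LPS arrays. It was 338 to 365 in Mreg_+LPS and 467 to 608 in Mreg, and 448 to 468 in MΦ_M1 and 577 to 627 in MΦ_IFN-γ.

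**Figure D4:**
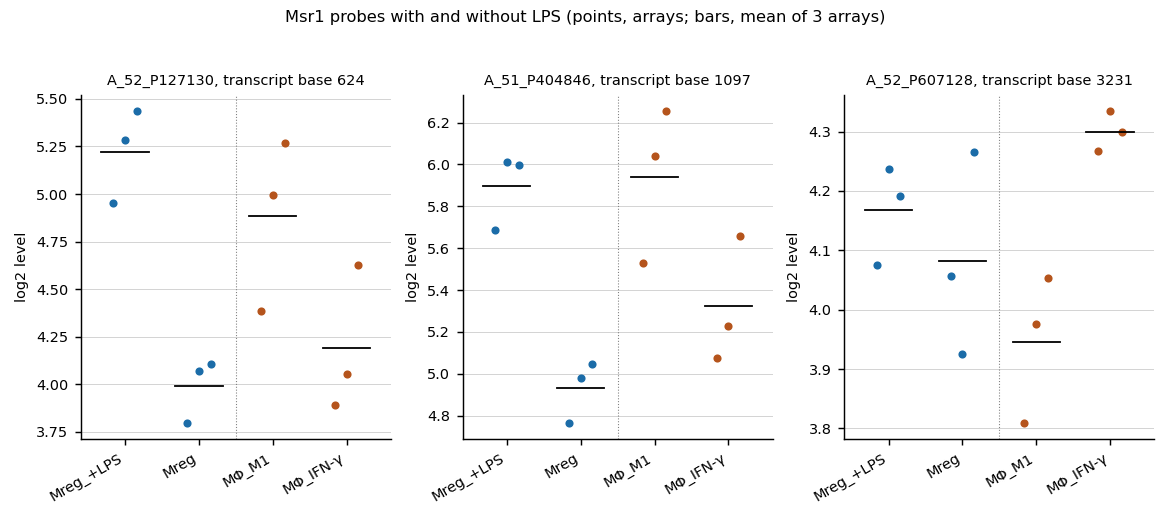
Log2 level of the 3 Msr1 probes on each array (points, with the mean of 3 arrays as bars) in Mreg_+LPS, Mreg, MΦ_M1 and MΦ_IFN-γ, on a separate axis per probe. The probes at bases 624 and 1097 were higher with LPS in Mreg culture, and that at 3231 overlapped.

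Other pathway genes moved both ways with LPS. Of all genes, 31.4% rose and 25.6% fell in Mreg_+LPS, and 27% rose and 23.6% fell in MΦ_M1. Of 17 engulfment genes, 5 rose and 8 fell in Mreg_+LPS, including the lysosomal nuclease Dnase2a (-2.71). In MΦ_M1, 5 rose and 5 fell, with Dock1, which activates Rac, at -1.92. Among 11 other scavenger receptors, 3 rose and 3 fell in Mreg_+LPS and 2 rose and 3 fell in MΦ_M1. Cxcl16, a scavenger receptor and chemokine, rose by 4.41 and 4.03. Of 9 TAM receptor partners, 3 rose and 3 fell in Mreg_+LPS, and 6 rose and 3 fell in MΦ_M1. Of 19 efferocytosis receptors and bridges, 5 rose and 3 fell in Mreg_+LPS, and 4 rose and 4 fell in MΦ_M1. The 11 linked transcription factors divided as 5 higher and 3 lower in each. The nuclear receptor Nr1h3 (LXRα), which regulates Mertk in mouse macrophages, rose by 2.39 in Mreg_+LPS and by 3.40 in MΦ_M1.

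IL-4 lowered Gas6 and Stab1 and raised Olr1, 3 members called against 12.1% of all genes. Gas6 was at 5.19, 5.33 and 5.34 in MΦ_M2a, against 6.68, 6.61 and 6.47 in MΦ_M0, 2.46-fold lower with groups apart (adjusted p = 0.011). Stab1 averaged 4.03 ± 0.30 in MΦ_M2a and 5.43 ± 0.36 in MΦ_M0, 2.64-fold lower (adjusted p = 0.036, up to 0.15 with 1 array left out), and its second probe was not called (log2 -0.77, adjusted p = 0.11). Olr1 was 18.6-fold higher (adjusted p = 0.001), at -0.00, -3.94 and -4.25 in MΦ_M2a, with 1 of 3 MΦ_M0 arrays above background, so that the fold rests partly on signal near background. Array MΦ_M2a 1 stood apart for Olr1, Axl and Marco. Without it the Olr1 fold was 7.22, and over the 6 arrays left out in turn it was 7.22 to 33.9. The Olr1 call was not kept with normexp correction (log2 0.72, adjusted p = 0.29). Marco was not called (log2 -1.24, adjusted p = 0.23), though it was without MΦ_M2a 1 (-2.13, 0.031). Its partner array MΦ_M0 1 was high for Marco as well. With 1 array left out in turn, the Marco difference ran from -2.13 to -0.57 (adjusted p 0.031 to 0.71). Dendritic cell markers moved with this comparison: 3 of 7 were higher and 0 lower, summing to 111 to 211 in MΦ_M2a and 26.1 to 50.3 in MΦ_M0, and their part was not tested. Of the pathway lists, Abca1, a lipid exporter, fell by 2.16 and Tgm2 rose by 1.68.

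Dexamethasone raised Mertk and Marco, 2 members called against 20.2% of all genes. Mertk was at 4.48, 4.69 and 4.62 in MΦ_M2c, against 1.93, 2.20 and 2.09 in MΦ_M0, 5.77-fold higher with groups apart (log2 2.53 ± 0.47, adjusted p = 0.00025). Marco was at 3.92, 3.57 and 3.43 in MΦ_M2c, against 2.91, 1.02 and 0.77 in MΦ_M0, 4.22-fold higher (adjusted p = 0.021, up to 0.12 with 1 array left out). Array MΦ_M0 1 was the high one, and without it the log2 difference was 2.75. Stab1 did not overlap, at 6.40, 6.24 and 6.15 in MΦ_M2c, against 5.82, 5.38 and 5.10 in MΦ_M0, but was not called (log2 0.83, adjusted p = 0.21), whereas its second probe was (0.90, adjusted p = 0.038). Axl was at -0.21, -0.67 and -0.42 in MΦ_M2c, against 1.22, 1.02 and 0.64 in MΦ_M0, with adjusted p = 0.11, and 0.04 with the series number as a block. Of 19 other efferocytosis receptors and bridges, 4 rose and 3 fell, including the integrin chain Itgb3 (6.39) and thrombospondin Thbs1 (3.83). Cd163, the haemoglobin scavenger receptor, rose by 3.56.

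Immunoglobulin coating lowered Gas6, Mertk and Pros1 in cells that also had IFN-γ, 3 members called against 3.87% of all genes. Gas6 was at 1.99, 1.67 and 1.28 in MΦ_M2b, against 3.34, 3.36 and 3.47 in MΦ_IFN-γ, 3.35-fold lower (adjusted p = 0.003). Mertk was at 0.62, 0.76 and 0.31 in MΦ_M2b, against 2.38, 2.34 and 2.70 in MΦ_IFN-γ, 3.74-fold lower (adjusted p = 0.018). Pros1 was at 2.17, 1.96 and 1.51 in MΦ_M2b, against 2.99, 2.99 and 2.62 in MΦ_IFN-γ, 1.98-fold lower (adjusted p = 0.0077). Both ligands and Mertk were lower on every coated array, while Axl overlapped (log2 -0.31, adjusted p = 0.91). Leaving out single arrays ended the Mertk (up to 0.11) and Pros1 (up to 0.093) calls. Marco was 2.04 lower with adjusted p = 0.074, and 0.027 with the series number as a block. Ly6C-high markers summed to 82.1 to 128 in MΦ_M2b and 50.2 to 60.9 in MΦ_IFN-γ. Of the 4 tested, 0 were called higher and 0 lower, and their part was not tested.

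Starting from unsorted cells changed no member by limma (0 called, against 11.7% of all genes; 1, Axl, had an unadjusted p under 0.05). Axl was 1.52 ± 0.61 higher in Mreg_unpurified (2.43, 0.87 and 2.79) than in Mreg (1.26, -0.44 and 0.71), with adjusted p = 0.10. With the series number as a block the adjusted p was 0.033, but the numbers do not pair these groups (lowest correlation of deviations 0.054). The arrays of the 2 groups overlapped. Marco was 1.21 lower (adjusted p = 0.23). C1qa (2.57) and Thbs1 (2.37) were among the 3 of 19 other efferocytosis receptors and bridges that rose, and none fell. Of the marker lists, 1 of 4 Ly6C-high monocyte, 1 of 6 resident macrophage and 1 of 6 macrophage markers were higher, as was 1 of 4 erythroid and megakaryocyte markers, the last with sums of 0.14 to 0.211 in Mreg_unpurified and 0.0652 to 0.0783 in Mreg. No B cell (0 of 3) or T and NK cell (0 of 5) marker passed the test.

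Mo-DC differed from MΦ_IFN-γ in 6 members, 3 higher and 3 lower, against 47.4% of all genes. Olr1 was at 4.71, 4.61 and 4.21 in Mo-DC and not above background in MΦ_IFN-γ, at least 5452-fold higher (adjusted p = 3.6e-12). Mfge8 was at 8.83, 8.86 and 9.80 in Mo-DC, against 5.62, 5.52 and 5.17 in MΦ_IFN-γ, 13.3-fold higher (adjusted p = 3.2e-06). Stab1 was at -0.35, -0.89 and -1.50 in Mo-DC, against 3.26, 3.08 and 3.39 in MΦ_IFN-γ, 17.8-fold lower (adjusted p = 1.6e-08). All 3 pairs were far apart. Pros1 was 2.24-fold higher, Gas6 2.88-fold lower and Msr1 1.82-fold lower. Tyro3, the third kinase of the Mertk and Axl family, was at least 84.9-fold higher (adjusted p = 4.8e-09). Dendritic cell markers summed to 243 to 262 in Mo-DC and 11.2 to 29.1 in MΦ_IFN-γ, with 3 of 7 called higher and 1 lower. Macrophage markers summed to 127.6 to 184.7 in Mo-DC and 591.5 to 653.3 in MΦ_IFN-γ, with 0 of 6 called higher and 4 lower. The part of either list was not tested. In such bulk RNA, fewer cells of a type and less RNA per cell cannot be told apart.

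Against uncultured cells, MΦ_M0 differed in 9 members, 8 higher and 1 lower than in Monocytes, against 63.3% of all genes. The members' median difference was 3.62, against -0.09 over all genes. Gas6 was at 6.68, 6.61 and 6.47 in MΦ_M0, against -3.02, -3.69 and -2.11 in Monocytes, 736-fold higher (adjusted p = 1.2e-18). Stab1 was 410.5-fold higher (adjusted p = 1.9e-15). Mertk was 124-fold higher, with 1 of 3 Monocytes arrays above background, so that the fold rests partly on signal near background: it was 70.4 without Monocytes 2 and 245.5 without Monocytes 3. Mfge8, Marco and Msr1 were 15.5-fold, 14.8-fold and 10.2-fold higher, Axl 5.35-fold and Pros1 4.77-fold. Olr1 went the other way and was 126-fold lower in MΦ_M0, where 1 of 3 arrays was above background. That fold was 77.7 without MΦ_M0 3 and 230.3 without MΦ_M0 1. Without MΦ_M0 1 the Marco difference was 3.22 on the log2 scale, against 3.89 with it. Monocytes also carried neutrophil markers, summing to 3.12 to 4.30 in MΦ_M0 and 3044 to 3783 in Monocytes, with 8 of 8 lower in MΦ_M0, and their part was not tested. Complement C1qc (7.47) and the scavenger receptor Cd36 (8.58) rose as well.

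Other cell types' markers also moved in several comparisons, and their part in the members' changes was not tested. Of 4 Ly6C-high markers, 3 were higher with IFN-γ in each culture. Resident macrophage markers were called higher in 3 of 6 with dexamethasone and lower in 2 of 6 with IFN-γ in Mreg culture. Stromal and endothelial markers were higher in 3 of 6 in Mreg_+LPS, where they summed to 0.628 to 0.838, against 0.232 to 0.378 in Mreg. T and NK cell markers were higher in 4 of 5 in Mo-DC, with sums of 0.286 to 0.397 in Mo-DC and 0.15 to 0.185 in MΦ_IFN-γ. Of all genes, IFN-γ raised 9.38% and lowered 10.8% in Mreg culture, and raised 10.5% in M-CSF culture. The share called higher was 10.3% with dexamethasone, 31.4% in Mreg_+LPS against Mreg and 22% in Mo-DC against MΦ_IFN-γ.

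Of the 47 member changes called in the 12 pair comparisons, 30 compared groups on the same slides. On a single scan day the log2 change was 0.49 to 1.47 of the pooled one, a description only, since these changes were selected on the same arrays. Several comparisons share a control group, so their values are given side by side and not counted as independent.

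Across the 12 group means, of 45 pairs of members, Gas6 and Stab1 varied together (r = 0.88, rho = 0.85), as did Mertk and Marco (0.80, 0.87) and Mertk and Msr1 (0.88, 0.55). Over the 11 cultured groups the values were 0.79 and 0.81 for Gas6 with Stab1, 0.86 and 0.83 for Mertk with Marco, and 0.44 and 0.41 for Mertk with Msr1, so the last pair rests on the Monocytes. These are descriptions over groups that share array scaling. Among 13806 genes compared with each member over the 12 group means, the patterns most like Gas6 were Wdr81 (r = 0.96), Exoc6b (0.95) and Bend3 (0.94), and those most like Mertk included Cyth3 (0.97) and Myo10 (0.97). For Stab1 they were Tmem175 (0.96), Zfp780b (0.95) and Rhbdd3 (0.95), for Marco Tm4sf5 (0.95), Ppfibp2 (0.93) and Ptprm (0.91), and for Msr1 Adap2 (0.98), Mdfic (0.97) and Scarf1 (0.97).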

How the data were processed

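Per the labels' protocols, Cy3-labelled RNA was hybridized to single-colour Agilent arrays. The authors deposited the processed signal intensity of each spot, background-corrected by Feature Extraction 10.5.1.1, and a series table of log2 values normalized by the authors, used as an alternative. Probe coordinates (mm8, NCBI36) are as deposited. Levels were log2 intensity minus the array's 75th percentile. Flagged outlier spots were left out, 26527 probes that rose above background on 3 or more arrays were retained, and each gene was read from its brightest probe. Group means were estimated jointly over all arrays with limma 3.58.1 (R 4.3.3), with Benjamini-Hochberg adjustment at 0.05. Where no array of a group was above background, the fold is a lower bound against the lowest signal above background. The members, the gene lists and the tests were chosen with earlier results of these data known. All 10 members and, per pathway list, up to 2 called genes with at least a 2-fold change are named, with stimulus-check genes and, for likeness, the 3 closest genes, of which 1 is not reported here. Alternatives were normexp (offset 50), quantile normalization, no filter or one of 18 arrays, the mean of all probes, the series table, replicate and slide blocks, only the compared groups, and each array left out. Series numbers pair the samples where every pair's deviations correlate above 0.1 (both IFN-γ, both LPS, IL-4, dexamethasone and immunoglobulin comparisons). Precision is limited by 3 arrays a group.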

Additional observations from a re-analysis of the deposited data

Results flagged for a closer look

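The LPS responses of 4 members differed between Mreg culture and M-CSF culture by an interaction test in limma, which called 34.8% of all genes. With 10 members, this count is near the background. Given as the response in Mreg culture minus that in M-CSF culture (log2), the difference was 1.90 for Gas6 (adjusted p = 0.0029), 1.12 for Pros1 (0.0050), -1.84 for Stab1 (0.023) and -3.36 for Marco (0.0046). The Stab1 difference was not called with normexp (0.064) or with some single arrays left out (up to 0.085). Mreg_+LPS and Mreg shared slides, whereas MΦ_M1 and MΦ_IFN-γ lay on different ones. Fitted with a random slide effect, the adjusted p was 0.0033 for Gas6, 0.0017 for Pros1, 0.016 for Stab1 and 0.0025 for Marco.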

How the results depend on the processing

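No called member value turned its direction under any alternative run. Of 51 called member results, 35 kept their call under every alternative and 16 lost it under at least 1. The number of members called moved as follows. Fitted on the compared groups alone, it was 1 (IFN-γ in Mreg, 3 in the fit reported) and 4 (dexamethasone, 2). With normexp or with no filter, it was 1 for Mreg against MΦ_IFN-γ (2). With the replicate block it was 5 for Mreg_no IFN-γ against MΦ_M0 (3) and 1 for unsorted cells (0), where the slide as a random block also gave 1; the numbers pair neither. Leaving out 1 array gave 2 to 3 for IFN-γ in M-CSF (4), 1 to 2 for Mreg against MΦ_IFN-γ (2), 1 to 4 for Mreg_no IFN-γ against MΦ_M0 (3), 1 to 2 for dexamethasone (2) and 1 to 3 for immunoglobulin (3). Over all genes, normexp gave 2247 calls for IFN-γ in Mreg (3657), 3191 for Mreg against MΦ_IFN-γ (4977), 3199 for Mreg_no IFN-γ against MΦ_M0 (5604), 272 for immunoglobulin (702), 813 for unsorted cells (2127), 38 for the IFN-γ interaction (281) and 3937 for the LPS interaction (6306). Without a filter, LPS in MΦ_IFN-γ gave 13989 (9186) and the IFN-γ interaction 180. The replicate block and the slide gave 1121 and 1309 for immunoglobulin and 3394 and 3573 for unsorted cells, and the block 448 for the IFN-γ interaction. The compared groups alone gave 2411 for IFN-γ in Mreg, 433 for immunoglobulin, 0 for unsorted cells and 545 for the IFN-γ interaction. Leaving out 1 array gave 246 to 663 for immunoglobulin, 912 to 2231 for unsorted cells, 123 to 244 for the IFN-γ interaction and, without MΦ_M2a 1, 1304 for IL-4 (2197). The cause was not tested. Depth does not apply to arrays; signal near background limits Olr1 and Timd4.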

Other observations

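For the members whose nearest patterns the report does not give, the genes with the most similar 12 group means were Slc25a4 (r = 0.94), Slc22a18 (0.92) and Ccdc89 (0.92) for Pros1, and Pon2 (0.95), Kctd17 (0.95) and Cd22 (0.93) for Mfge8. For Olr1 they were Slc9a3r2 (0.95), Bcas1 (0.94) and St8sia1 (0.94), and for Axl Ptgdr2 (0.91), Asb11 (0.91) and Arf3 (0.90). Timd4 was above background on 4 arrays, at -5.58 in Mo-DC 1, -4.75 in Monocytes 3, -3.51 in Mreg_unpurified 2 and -4.46 in MΦ_M2a 3, so the likeness of its pattern to Acta2 (0.87), Mmrn1 (0.84) and Actb (0.83) rests on signal near background. In the LPS interaction, the response in Mreg culture minus that in M-CSF culture was above 0 for 2 of 17 engulfment genes past the threshold and below 0 for 6, among them Dnase2a (-1.25) and Crk (-1.18). Of all genes, 18.6% were called above 0 and 16.2% below 0.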
